A study of Arabidopsis thaliana with 4 samples.

Results

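The transcriptome of Arabidopsis seedlings labelled hda6 was compared with that of seedlings labelled ldl1/2, through the wild type (WT) that both had been measured against. For each gene, the log2 fold change of ldl1/2 over WT was subtracted from that of hda6 over WT, so that the WT level dropped out. A gene was compared when the larger group mean reached 1 RPKM (reads per kilobase of exon, scaled to library size) in at least 1 of both deposited tables, which kept 19261 of 34262 genes. The comparison uses 2 of the 4 samples of the series. The seedlings were of the Col-0 ecotype, 14 days old, grown in long days at 22 °C, and total RNA of whole plants was sequenced with paired reads of 150 nt. Beside WT there were the single mutant hda6, the double mutant ldl1/2, and a group that carries both names in its label, hda6/ldl1/2. Neither the alleles nor the hour of harvest were named in the sources used here.

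HDA6 is a histone deacetylase, an enzyme that takes acetyl groups off histone tails, and it keeps many transposons and repeats silent. LDL1 and LDL2 are related to the human demethylase LSD1, which takes methyl groups off lysine 4 of histone H3. Acetylation and methylation of lysine 4 both mark active genes, so both kinds of enzyme are known as repressors, and both are known for holding down the flowering repressor FLC.

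GEO lists 1 sample per genotype, but the printed means resolved into 3 WT libraries of 48.6 to 51.6 M reads, 2 hda6 libraries of 47.3 and 47.5 M, 2 ldl1/2 libraries of 40.2 and 42.6 M and 2 hda6/ldl1/2 libraries of 43.8 and 49.4 M (M, 1e6 reads). Where a mutant mean was the printed one, that is, where the gene was above WT in that mutant, whole reads of both libraries could be solved, for 98.91% of such means in hda6 and 98.91% in ldl1/2. Whether these were separate plants or repeat preparations was not recorded in the labels, so any spread between them may be technical. Among genes of at least 1000 reads, the log2 ratio of both libraries had an SD of 0.16 in hda6 and 0.25 in ldl1/2. Library levels differed by over 2-fold for 4 genes in hda6 and for 44 in ldl1/2, which makes ldl1/2 the less even group by this count. Levels below are RPKM. "Rose" and "fell" refer to a mutant against WT at the threshold of 0.05 on the FDR of the authors' deposited table. "Higher in hda6" and "higher in ldl1/2" refer to the difference between the mutants, which has no test of its own. The nominal 95% interval given with a difference combines the standard errors that the deposited p-values imply, and it counts the WT error in both.

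Transcripts of LDL1 and LDL2 were lower in ldl1/2, and that of HDA6 was higher in hda6. LDL1 stood at 4.86 RPKM in WT, 4.93 in hda6 and 2.87 in ldl1/2, and fell in ldl1/2 in the authors' deposited table (log2 fold change -0.79, FDR 2.52e-05). LDL2 stood at 1.43 RPKM in WT, 1.46 in hda6 and 0.646 in ldl1/2, a difference of 1.27 with a nominal interval of 0.59 to 1.94, which was under 1 with a pseudocount of 1 RPKM (added to each mean before the log). HDA6 read 24.4 and 24.7 RPKM in the hda6 libraries, above both ldl1/2 libraries (19.1 and 19.7) and above the WT mean of 17.7, and it rose in hda6 in the authors' deposited table (log2 fold change 0.53, FDR 0.000179). A transcript level does not show whether the protein works, and every direction below is for the samples as labelled. In the samples labelled hda6/ldl1/2 neither LDL1 (4.60 RPKM) nor LDL2 (1.04 RPKM) fell past the FDR in the authors' deposited table, unlike in ldl1/2. What this means for the label was not tested, and those samples are called by their label throughout.

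By a rule of size, a difference of at least 1 in log2, 581 genes were higher in hda6 (3.02% of those compared) and 692 were higher in ldl1/2 (3.59%). The median difference over all genes was -0.005 and the median absolute difference 0.19. The combined standard error had a median of 0.17, and of 0.47 for genes of 1 to 2 RPKM, so the size rule is closest to the error in the weakest genes. With the nominal interval also clear of 0, 533 genes (2.77%) remained higher in hda6 and 640 (3.32%) higher in ldl1/2. At any size the interval was clear of 0 for 1903 genes higher in hda6 (9.88%) and 1983 higher in ldl1/2 (10.3%). The members nearest the threshold were RVE7 at 1.000 inside and AT1G35210 at 0.999 outside, and AT4G13575 at -1.003 inside and AT3G58550 at -0.999 outside.

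The 581 genes higher in hda6 came from both sides. Of them, 322 rose in hda6, 221 fell in ldl1/2, and 62 did both in the authors' deposited tables, where 4.34% of all genes compared rose in hda6 and 4.04% fell in ldl1/2. Of the 692 genes higher in ldl1/2, 373 fell in hda6, 269 rose in ldl1/2, and 84 did both in the authors' deposited tables, where 4.30% of all genes fell in hda6 and 4.40% rose in ldl1/2. Neither mutant passed the deposited FDR for 100 of the former and 134 of the latter. The median size was 1.66 in log2 for genes higher in hda6 and 1.59 for genes higher in ldl1/2. For 183 of these genes the libraries of both mutants could be read, and in 179 of them no hda6 library overlapped an ldl1/2 library. The size rule had picked them by the means of these same libraries, so little overlap was built in. Over all 3382 genes with both read, 18.4% had every hda6 library above every ldl1/2 library and 24.8% the reverse.

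**Figure D1:**
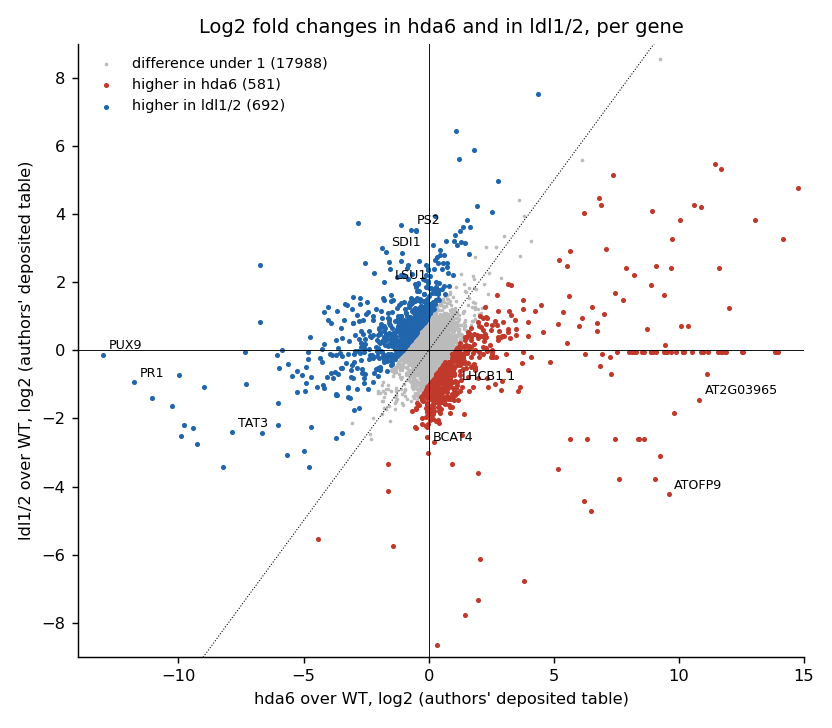
Log2 fold change of hda6 over WT (x axis) against that of ldl1/2 over WT (y axis), both from the authors' deposited tables, 1 point per gene compared; the dotted line marks equal fold changes and 2 genes lie outside the y range. The 581 red points below the line were higher in hda6, and the 692 blue points above it were higher in ldl1/2.

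Genes that plants switch on when sulfur runs short separated the mutants in 1 direction. All 14 listed genes passed the filter, 11 were higher in ldl1/2 by the size rule, none was higher in hda6, and the median difference was -1.59 against -0.005 for all genes. By the authors' deposited tables, 13 of the 14 rose in ldl1/2 and 4 fell in hda6. SDI1 (AT5G48850, chromosome 5, 19805437 to 19807853), a repressor of glucosinolate synthesis that is a textbook marker of sulfur limitation, read 194 and 257 RPKM in the ldl1/2 libraries, against means of 29.4 in WT and 8.63 in hda6. Both ldl1/2 libraries were thus far above the hda6 mean, and the difference was -4.61, with a nominal interval of -5.50 to -3.72.

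LSU1, a small protein named for its response to low sulfur, read 194 and 266 RPKM in the ldl1/2 libraries, with means of 37.2 in WT and 12 in hda6. Its neighbour in the family, LSU2, read 190 and 234 RPKM in ldl1/2, with means of 43.9 in WT and 26.6 in hda6. SDI1, LSU1 and LSU2 moved apart on both sides of WT, since each rose in ldl1/2 and fell in hda6 in the authors' deposited tables. GGCT2;1, which recycles glutathione, read 139 and 170 RPKM in ldl1/2 with a mean of 9.16 in hda6, a difference of -3.98. BGLU28, a myrosinase-like glucosidase, read 23.1 and 44.5 RPKM in ldl1/2 and 2.03 and 2.78 in hda6, so the libraries of both mutants did not overlap. Of the high-affinity sulfate transporters of the root, SULTR1;1 had a difference of -2.09 and SULTR1;2 of -1.50, and SULTR1;2 both rose in ldl1/2 and fell in hda6 in the authors' deposited tables. The APS reductases, which reduce activated sulfate, differed less, with -1.19 for APR3, -0.44 for APR2 and -0.39 for APR1. In the samples labelled hda6/ldl1/2 SDI1 read 24.7 and 79.1 RPKM, between the other mutants.

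Genes of the phosphate starvation response also stood higher in ldl1/2. These genes are controlled by PHR1, a MYB factor that binds a site called P1BS, and serve to take up phosphate, free it from organic compounds and replace phospholipids by other lipids. All 15 listed genes passed the filter, 10 were higher in ldl1/2, none was higher in hda6, and the median difference was -1.36. By the authors' deposited tables, 12 rose in ldl1/2, and in hda6 2 fell and 1 rose. PS2 (AT1G73010, chromosome 1), a phosphatase induced by phosphate shortage, read 23.7 and 21.7 RPKM in the ldl1/2 libraries, with means of 1.90 in WT and 1.12 in hda6. SPX3, a phosphate sensor that restrains PHR1, read 12.3 and 16.9 RPKM in ldl1/2, with means of 1.22 in WT and 0.816 in hda6. The differences were -4.25 for PS2 and -4.06 for SPX3, and neither gene passed the FDR in hda6 (0.359 and 0.776 in the authors' deposited table).

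IPS1, a noncoding RNA that sequesters miR399, was the listed gene that fell furthest in hda6. It had means of 2.63 RPKM in WT and 0.312 in hda6, and read 9.27 and 6.75 in the ldl1/2 libraries. MGD3, which makes galactolipids under phosphate shortage, read 10.7 and 16.7 RPKM in ldl1/2 against a mean of 1.41 in hda6. PHT1;4, a phosphate transporter, had a difference of -1.84, and it rose in ldl1/2 and fell in hda6 in the authors' deposited tables. PECP1, a phosphatase of phosphocholine and phosphoethanolamine, rose in both mutants in the authors' deposited tables, with 4.24 and 4.52 RPKM in the hda6 libraries and 15.5 and 17.7 in ldl1/2. SRG3, a glycerophosphodiester phosphodiesterase, had a difference of -1.15 that was -0.88 without the second ldl1/2 library. PHO1;H1 had the opposite sign, a difference of 0.50. In the samples labelled hda6/ldl1/2 PS2 had a mean of 2.2 RPKM and SPX3 of 1.17, both below the ldl1/2 libraries.

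The letters GNATATNC of P1BS, which read the same on both strands, were searched in the 250 bases before the annotated start of each gene, read from the TAIR10.1 genome. They were present in 5 of the 15 phosphate promoters (33.3%), in 64 of 679 promoters of genes higher in ldl1/2 (9.43%), in 28 of 579 of genes higher in hda6 (4.84%) and in 1055 of all 19211 (5.49%). The 5 were PS2, SPX3, AT4, SRG3 and MGD2. The promoters of PS2, SPX3 and of AT4, a noncoding RNA of the IPS1 family, are shown because they carry the motif and these genes were higher in ldl1/2, with P1BS matches in capitals. PS2 is on the minus strand at chr1:27466349-27466598, with its match starting 217 bases before the gene. SPX3 is on the plus strand at chr2:18606160-18606409, with matches 213 and 90 bases before the gene. AT4 is on the plus strand at chr5:894332-894581, with its match 26 bases before the gene.
PS2: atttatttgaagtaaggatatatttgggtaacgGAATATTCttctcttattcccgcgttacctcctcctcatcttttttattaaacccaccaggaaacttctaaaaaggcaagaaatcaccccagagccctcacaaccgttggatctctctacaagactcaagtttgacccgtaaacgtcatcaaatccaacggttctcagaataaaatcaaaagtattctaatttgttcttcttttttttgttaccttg
SPX3: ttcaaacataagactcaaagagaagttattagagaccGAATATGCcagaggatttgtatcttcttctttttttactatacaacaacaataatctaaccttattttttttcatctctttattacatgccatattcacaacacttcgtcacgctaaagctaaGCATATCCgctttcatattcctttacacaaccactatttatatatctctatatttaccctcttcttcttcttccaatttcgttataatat
AT4: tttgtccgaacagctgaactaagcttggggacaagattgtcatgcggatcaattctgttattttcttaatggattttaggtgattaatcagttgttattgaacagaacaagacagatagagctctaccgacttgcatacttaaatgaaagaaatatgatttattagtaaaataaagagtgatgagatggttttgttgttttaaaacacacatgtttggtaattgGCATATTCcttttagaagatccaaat

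Genes that make aliphatic glucosinolates, the sulfur-rich defence compounds derived from methionine, were lower in ldl1/2 than in hda6. Of the 18 listed genes 17 were in the tables and passed the filter, 14 were higher in hda6 by the size rule, none was higher in ldl1/2, and the median difference was 1.83. All 17 fell in ldl1/2 and 1, MAM3, rose in hda6 in the authors' deposited tables. BCAT4, which starts the pathway by deaminating methionine, had means of 153 RPKM in WT, 142 in hda6 and 34.3 in ldl1/2, a difference of 2.13 with a nominal interval of 1.52 to 2.74. MAM1 and MAM3, which lengthen the side chain, differed by 1.87 and 2.44. MAM1 read 198 and 178 RPKM in the hda6 libraries against a mean of 54.5 in ldl1/2, and MAM3 51.9 and 50.3 against 10.1.

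The cytochromes that form the glucosinolate core followed, with differences of 1.93 for CYP79F1, 1.77 for CYP79F2 and 1.1 for CYP83A1. Among the MYB activators of the pathway the difference was 2.19 for MYB29 and 1.88 for MYB76, but 0.50 for MYB28, and MYB76 was under 1 with a pseudocount of 1 RPKM. MYB29 had means of 13.1 RPKM in WT, 12 in hda6 and 2.79 in ldl1/2. Except for MAM3, none of the 17 passed the FDR in hda6, and all passed it in ldl1/2, in the authors' deposited tables. Genes of the indolic branch, made from tryptophan, differed less: 1 of 8 compared was past the size rule, CYP79B3 at 1.63, and the median difference was 0.46. BCAT4 in the samples labelled hda6/ldl1/2 read 200 and 127 RPKM, which brackets the WT mean, and for all 17 aliphatic genes that sample lay nearer to hda6 than to ldl1/2.

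**Figure D2:**
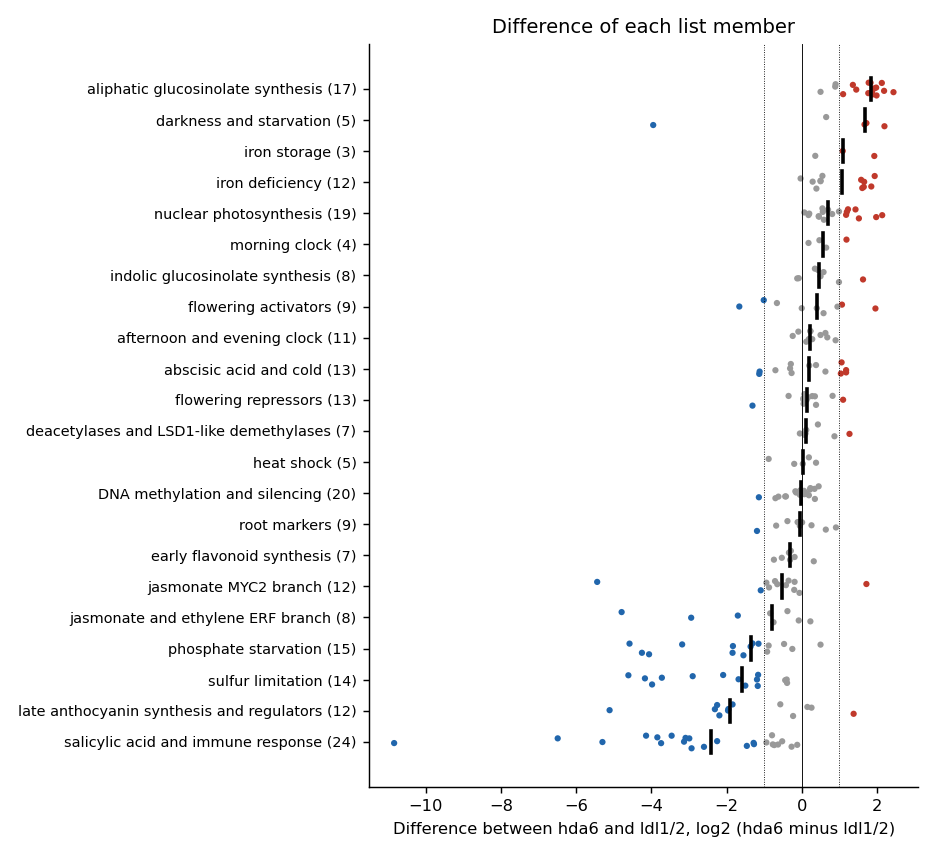
Difference between hda6 and ldl1/2 in log2 (x axis) for each compared member of the gene lists with at least 3 such members (number in brackets); black bars are list medians, red and blue points lie at or beyond 1 and -1. The lists at the ends are aliphatic glucosinolate synthesis, with a median of 1.83, and the salicylic acid and immune response, with a median of -2.42.

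Genes of the salicylic acid and immune response were lower in hda6. All 24 listed genes passed the filter, 16 were higher in ldl1/2 by the size rule, none was higher in hda6, and the median difference was -2.42, or -1.30 with a pseudocount of 1 RPKM. By the authors' deposited tables, 21 fell in hda6, while in ldl1/2 3 fell and 1 rose. PR1 (AT2G14610, chromosome 2, 6241640 to 6242541), the standard marker of salicylic acid signalling, had means of 96.9 RPKM in WT, 51.8 in ldl1/2 and 0.0265 in hda6. Its difference was -10.84, with a nominal interval of -13.76 to -7.93. PR2, a glucanase, had means of 57.5 RPKM in WT, 25.8 in ldl1/2 and 1.82 in hda6. PR5, a thaumatin-like protein, differed by -1.28, and by -0.39 without the second ldl1/2 library (13.2 and 35.9 RPKM in ldl1/2).

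Genes of salicylic acid synthesis and its regulators varied in size. ICS1, the main enzyme of that synthesis, had a difference of -0.77, and EDS5, which exports its product from the plastid, of -0.73. PBS3, which conjugates isochorismate, differed by -2.99. The regulator SARD1 differed by -3.46 and its relative CBP60G by -0.79. FMO1 and ALD1, which make the systemic signal N-hydroxypipecolic acid, differed by -4.14 and -3.84, although ALD1 fell in both mutants in the authors' deposited tables, to means of 0.0559 RPKM in hda6 and 0.851 in ldl1/2, and its difference was under 1 in size with a pseudocount of 1 RPKM.

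The WRKY factors below regulate this response. WRKY70 read 69.3 and 72.5 RPKM in the ldl1/2 libraries, with means of 43.1 in WT and 11.0 in hda6. WRKY38 read 2.67 and 4.24 RPKM in ldl1/2 with a mean of 0.0827 in hda6. FRK1, a receptor-like kinase induced by flagellin, was the listed gene that fell in hda6 and rose in ldl1/2 in the authors' deposited tables, although its ldl1/2 libraries read 3.17 and 7.98 RPKM and its difference of -2.25 was -1.44 without the second. The camalexin genes CYP71A13 and PAD3 fell in both mutants in the authors' deposited tables, and further in hda6, with differences of -6.49 and -3.09. Regulators of the pathway upstream of PR1 had differences of -0.94 for PAD4, -0.63 for EDS1, -0.27 for NPR1 and -0.12 for SAG101.

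The W-box, the site bound by WRKY factors, was searched as TTGACC or TTGACT on either strand. It was present in 267 of 679 promoters of genes higher in ldl1/2 (39.3%), in 147 of 579 of genes higher in hda6 (25.4%) and in 5432 of all 19211 (28.3%), but in 6 of the 24 immune promoters (25%). FRK1 and WRKY53 are shown because they carry 2 matches each, in capitals, and were higher in ldl1/2. FRK1 is on the minus strand at chr2:8329945-8330194, with matches starting 47 and 29 bases before the gene. WRKY53 is on the minus strand at chr4:12393983-12394232, with matches 219 and 71 bases before the gene, and its difference of -1.46 was -0.86 without the second ldl1/2 library.
FRK1: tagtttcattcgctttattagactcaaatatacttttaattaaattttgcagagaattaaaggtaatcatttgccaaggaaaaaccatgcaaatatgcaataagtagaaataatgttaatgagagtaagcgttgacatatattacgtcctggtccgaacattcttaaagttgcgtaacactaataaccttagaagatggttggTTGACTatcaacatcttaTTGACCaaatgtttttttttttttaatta
WRKY53: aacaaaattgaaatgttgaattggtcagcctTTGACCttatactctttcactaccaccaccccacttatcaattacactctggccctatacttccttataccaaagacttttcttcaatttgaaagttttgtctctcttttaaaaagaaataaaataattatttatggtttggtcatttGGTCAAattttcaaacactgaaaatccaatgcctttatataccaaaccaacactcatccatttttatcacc

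Other motifs were searched on either strand. The G-box CACGTG was in 7.43% of promoters of genes higher in hda6, 7.51% of those higher in ldl1/2 and 7.22% of all, and in 4 of the 12 iron deficiency promoters (33.3%). The evening element AAATATCT of clock-controlled genes was in 4.66%, 7.22% and 5.01%, so its share among genes higher in ldl1/2 was raised about as much as that of the W-box. The core GAGAC of the sulfur response element was in 24.5%, 27.7% and 25.1%, and in 3 of the 14 sulfur promoters (21.4%). A match is a run of letters in this window and not a shown site of binding.

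Jasmonate genes leaned to ldl1/2 in both branches, with few past the size rule. In the branch driven by MYC2, 12 of 14 listed genes passed the filter, 2 were higher in ldl1/2 and 1 was higher in hda6. The median difference was -0.54, 11 of the 12 differences were negative, and the nominal interval was below 0 for 7 and above 0 for 1. TAT3, an aminotransferase, had means of 63.7 RPKM in WT, 0.266 in hda6 and 12.3 in ldl1/2, and fell in both mutants in the authors' deposited tables. MYC2 itself was higher in hda6, with means of 9.20 RPKM against 2.97 in ldl1/2 and a difference of 1.72. VSP1, a vegetative storage protein, differed by -1.09, and by -0.89 without the first ldl1/2 library. In the branch that jasmonate and ethylene share, 3 of 8 genes were higher in ldl1/2, all defensins, 7 of the 8 differences were negative, and the median was -0.80. The defensin values leaned on the second ldl1/2 library. PDF1.2A read 8.38 and 108 RPKM in the ldl1/2 libraries and 10.8 and 3.42 in hda6, so the groups overlapped. Without the second ldl1/2 library its difference of -2.94 became -0.16, that of PDF1.2C went from -4.79 to -1.95, which is still past the size rule, and that of PDF1.2B turned from -1.70 to 1.05. The PDF1 copies are similar in sequence, and reads may have been split among them.

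Late anthocyanin genes, which make the red pigment from flavonoid precursors, were higher in ldl1/2. Of 14 listed genes 12 passed the filter, 7 were higher in ldl1/2, 1 was higher in hda6, and the median difference was -1.89, or -0.57 over the genes that reached 1 RPKM in both tables. Members such as 5MAT (0.258 RPKM in WT, 0.497 in hda6 and 2.42 in ldl1/2) and UGT79B1 (0.247, 0.563 and 2.84) passed the filter only through ldl1/2, where they are high. Many of these genes were near silent in WT, with DFR at 0.802 RPKM and LDOX at 0.708, and the 2 listed genes that did not pass were GL3 and TT8. DFR, the first enzyme of the late steps, read 3.5 and 0.914 RPKM in the hda6 libraries and 13.4 and 9.73 in ldl1/2. It rose in both mutants in the authors' deposited tables, and the libraries of the mutants did not overlap. Its difference of -2.31 was -3.60 without the first hda6 library. LDOX, the next enzyme, read 3.52 and 0.782 RPKM in hda6 and 10.5 and 7.17 in ldl1/2, a difference of -1.96 that ranged from -3.43 to -1.26 when an hda6 library was left out. The MYB activators PAP1 and PAP2 (MYB90 in the tables) differed by -1.84 and -5.11. PAP2 rose in ldl1/2 and fell in hda6 in the authors' deposited tables, with 5.54 and 14.8 RPKM in the ldl1/2 libraries and a mean of 0.276 in hda6. MYBL2, a repressor of the same pathway, was the listed gene higher in hda6, with 22.6 and 27.1 RPKM in hda6 against a mean of 10.1 in ldl1/2. None of the 7 early flavonoid genes, which feed flavonols too, was past the size rule, and their median difference was -0.31.

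Nuclear photosynthesis genes were higher in hda6 and stood on both sides of WT. All 19 listed genes passed the filter, 7 were higher in hda6 by the size rule, none was higher in ldl1/2, and the median difference was 0.70. By the authors' deposited tables, 12 rose in hda6 and 8 fell in ldl1/2. LHCB2.1, an antenna protein of photosystem II, read 215 and 218 RPKM in the hda6 libraries, with means of 94.0 in WT and 58.2 in ldl1/2, a difference of 1.98 with a nominal interval of 1.57 to 2.39. LHCB1.1 differed by 2.14, LHCB2.2 by 1.52 and LHCB3 by 1.43, and the antenna proteins of photosystem I LHCA4 and LHCA1 by 1.23 and 1.2. LHCB1 and LHCB2 copies are near identical, so reads may have been split among them. LHCB1.3, at 7310 RPKM in WT, differed by 0.70, the small Rubisco subunit RBCS1A by 0.18 and Rubisco activase RCA by 0.07. All 19 in the samples labelled hda6/ldl1/2 lay nearer to hda6 than to ldl1/2, with 195 and 194 RPKM for LHCB2.1. The genes of the plastid itself were mixed. Of 33 compared, 2 were higher in hda6, RBCL at 1.62 and PSBA at 1.05. Higher in ldl1/2 were 7, among them ACCD at -2.40, RPOC2 at -2.14 and PSAC at -9.24. The median difference of the 33 was 0.30. By the authors' deposited tables, 6 rose in hda6, 6 rose in ldl1/2 and none fell in either.

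**Figure D3:**
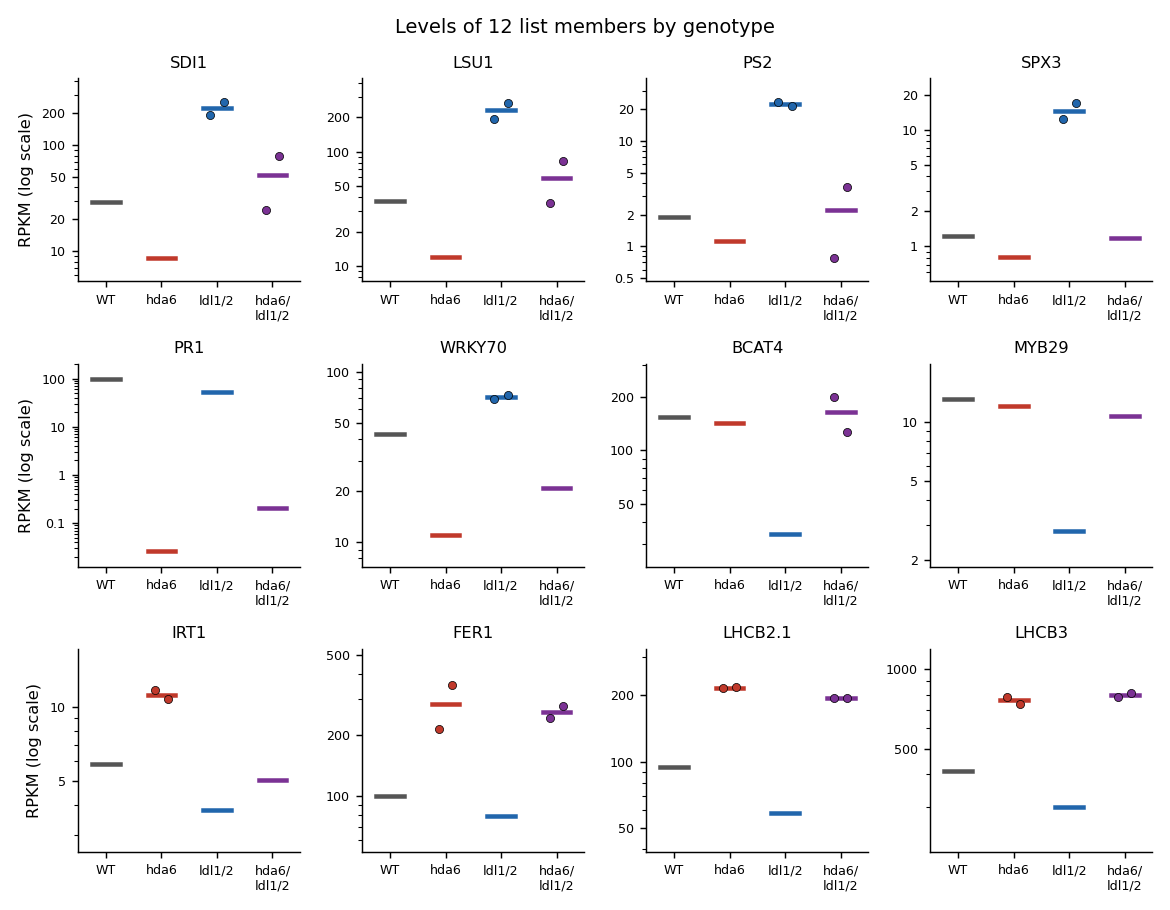
Levels in RPKM (log scale, a separate range for each gene) of 12 list members in each of the 4 genotypes; bars are group means and dots are libraries, which could be read only where the mutant mean was above WT. SDI1, LSU1, PS2 and SPX3 were highest in ldl1/2, PR1 and WRKY70 lowest in hda6, BCAT4 and MYB29 lowest in ldl1/2, and IRT1, FER1, LHCB2.1 and LHCB3 higher in hda6 than in ldl1/2.

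Iron genes were higher in hda6 as well. Of 12 genes that respond to iron shortage, all of which passed the filter, 6 were higher in hda6, none was higher in ldl1/2, and the median difference was 1.06. By the authors' deposited tables, 5 rose in hda6 and 4 fell in ldl1/2. IRT1, the iron transporter of the root surface, read 11.7 and 10.8 RPKM in hda6, with means of 5.84 in WT and 3.8 in ldl1/2. FRO2, the reductase that works with IRT1, read 4.2 and 3.53 RPKM in hda6 against a mean of 1.34 in ldl1/2. The factors BHLH38, BHLH39, BHLH100 and BHLH101 differed by 1.85, 1.58, 1.66 and 1.94, whereas FIT, their partner, differed by -0.03. BHLH101 was under 1 with a pseudocount of 1 RPKM. Of 3 ferritins, which store iron and are known to rise when iron is plentiful, 2 were higher in hda6. FER1 read 214 and 355 RPKM in hda6, with means of 100 in WT and 79.6 in ldl1/2, and differed by 1.93. FER3 differed by 1.09, and by 0.71 without the second hda6 library (92.7 and 147 RPKM in hda6), and was under 1 with either pseudocount. FER4 differed by 0.36 and passed the FDR in neither mutant (0.0732 and 1.000 in the authors' deposited tables).

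Flowering genes differed one by one. FLC, which holds back flowering until winter has passed, read 1.92 and 1.36 RPKM in hda6 and 4.0 and 4.61 in ldl1/2, a difference of -1.31. By the authors' deposited tables FLC rose in ldl1/2 (log2 fold change 1.69, FDR 2.46e-10) and did not pass the FDR in hda6 (0.38, FDR 0.655). Its relative MAF4 went the other way, with 6.39 and 6.56 RPKM in hda6 and 3.11 and 3.29 in ldl1/2, a difference of 1.1, and it rose in both mutants in the authors' deposited tables. MAF5 rose in both too, and at -0.35 was within the size rule. MAF4 and MAF5 are tandem copies, and reads may have been split between them. FT, the mobile signal that starts flowering, read 4.29 and 5.44 RPKM in hda6 with a mean of 1.33 in ldl1/2, a difference with a nominal interval of 0.97 to 2.95. FT fell in ldl1/2 (log2 fold change -1.38, FDR 0.00540) and did not pass the FDR in hda6 (0.58, FDR 0.558) in the authors' deposited tables. Its activator CO differed by 0.95, and SOC1, a target of FT and FLC, by 0.40. SPL3 was higher in hda6 by 1.07, while SPL5 and FUL, higher in ldl1/2, had differences of -1.66 and -1.01. SPL3 was under 1 with either pseudocount and with the ratio of RPKM means, MAF4 with either pseudocount, and the sizes of SPL5 and FUL with a pseudocount of 1 RPKM.

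The clock differed by less. Of 8 morning genes 4 passed the filter, and PRR7 at 1.19 was past the size rule, with 30.2 and 31.1 RPKM in hda6 against a mean of 14.3 in ldl1/2. None of 11 afternoon and evening genes was past it, with PRR5 at 0.90 and GI at 0.63. Genes induced by darkness and starvation were higher in hda6 in 3 of 5 cases. SEN1 read 11.5 and 14.8 RPKM in hda6 with a mean of 3.06 in ldl1/2, DIN10 differed by 1.67 and DIN6, an asparagine synthetase, by 1.72, while the glucosidase DIN2 differed by -3.95. SEN1, DIN10 and DIN6 each rose in hda6 and fell in ldl1/2 in the authors' deposited tables. Of 13 abscisic acid and cold genes 4 were higher in hda6 and 2 in ldl1/2, with a median of 0.20. The cold genes COR15A and COR15B were uneven between libraries, with 37.6 and 16.4 RPKM for COR15A in hda6 and 21.4 and 5.82 in ldl1/2. Their differences of 1.06 and 1.04 ranged from 0.34 to 2.30 and from 0.49 to 1.95 when 1 library was left out, and that of KIN1 went from -1.13 to -0.68 without the first ldl1/2 library. COR15A and COR15B were also under 1 with either pseudocount and with the ratio of RPKM means, and the size of KIN1 with a pseudocount of 1 RPKM.

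The silencing machinery was mostly level between the mutants. Of 20 genes of DNA methylation and silencing 1 was past the size rule, the DNA demethylase ROS1, with means of 12.3 RPKM in WT, 4.29 in hda6 and 10.1 in ldl1/2 and a difference of -1.14. IBM1, a histone demethylase that protects genes from methylation, differed by -0.62. MET1, CMT3, DDM1, KYP and AGO4 lay between -0.17 and 0.19. SDC, an F-box gene that DNA methylation holds silent, read 1.69 and 0.997 RPKM in hda6 and 0 and 0.0289 in ldl1/2. Its difference was 6.44, with a nominal interval of -0.22 to 13.10 that reaches 0, and WT stood at 0.00166 RPKM. SDC passed the filter only through hda6. FWA, the other listed gene silenced by DNA methylation, did not pass the filter. FWA rose in ldl1/2 (log2 fold change 4.16, FDR 0.00392) and did not pass the FDR in hda6 (0.503) in the authors' deposited tables. These genes thus gave no common direction. None of 5 heat shock genes compared was past the size rule. Markers of root tissue, which could shift with the share of root in a sample, summed to 55.1 RPKM in WT, 54.6 in hda6 and 56.0 in ldl1/2. Of 9 compared, RHD6, a root hair factor, was past the size rule at -1.19, and at -0.86 without the first ldl1/2 library, and its size was under 1 with a pseudocount of 1 RPKM. Of the 5 flower markers PI and SEP3 passed the filter, and neither was past the size rule (0.03 and 0.70). In such whole-plant samples fewer cells of a type and less RNA per cell cannot be told apart.

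Genes near silent in WT set the far end of the difference. Of 103 genes compared with a WT mean under 0.1 RPKM, 94 were higher in hda6 and 5 in ldl1/2. These genes passed the filter only through a mutant that expressed them, so a large difference was built into most of them. They made up 16.2% of the genes higher in hda6, 0.723% of those higher in ldl1/2 and 0.535% of all compared. For 56 of the genes higher in hda6 the rebuilt ldl1/2 level was under 0.5 reads, and for these each fold is a minimum, computed with the ldl1/2 level set at 3 reads for the group, which allows for counting error only.

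AT2G03965 (chromosome 2, 1251510 to 1252989), an uncharacterized protein, had the highest hda6 level among the 10 genes named, with 159 and 176 RPKM in the hda6 libraries and means of 0.0949 in WT and 0.0357 in ldl1/2. AT4G08691 read 37.9 and 36.1 RPKM in hda6 and was at least 1207-fold higher than in ldl1/2. ATOFP9, annotated as a transcription repressor, read 29.3 and 26.1 RPKM in hda6 and was at least 1072-fold higher. AT2G05642, an OB-fold protein, and AT3G44070, a glycosyl hydrolase, were at least 1153-fold and 1110-fold higher. AT5G01080, a beta-galactosidase related protein, read 27.3 and 28.1 RPKM and was at least 450-fold higher. AT2G15420, AT3G29080 and the proteases AT4G08430 and AT5G28235 completed the 10 highest, with 5.54 to 7.63 RPKM in hda6. In all 10, both hda6 libraries were far above ldl1/2, which the choice of the largest differences largely fixed in advance.

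In families chosen by annotation after their values had been seen, 6 of 9 beta-galactosidase related genes were higher in hda6, against 3.02% of all genes, and all but AT5G35760 of these had a WT mean under 0.1 RPKM. Of 6 Ulp1 protease genes measured, 4 passed the filter, each through hda6 alone (WT means of 0.0116 to 0.0156 RPKM), so that their direction was fixed by the filter. Ulp1 proteases of this kind are often parts of transposons. AT2G03965 in the samples labelled hda6/ldl1/2 read 144 and 147 RPKM and ATOFP9 29.7 and 32.2, whereas AT2G05642 read 4.51 and 3.09 against 20.7 and 20.9 in hda6, and AT3G29080 read 0.887 and 0.590 against 7.18 and 7.63.

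At the other end PUX9 (AT4G00752, chromosome 4, 317564 to 320935), a UBX domain protein, had means of 13.0 RPKM in WT and 12.2 in ldl1/2 and a rebuilt level under 0.5 reads in hda6, so it was at least 640-fold lower there. Its level in the samples labelled hda6/ldl1/2 did not pass the FDR against WT (0.227 in the authors' deposited table). The glutathione transferase GSTU3 stood at 2.17 RPKM in ldl1/2, at least 69.2-fold above hda6, and its rebuilt level was near 0 in the samples labelled hda6/ldl1/2 too. PCR1, CAD8, SAG13 and HIPP02 completed the lowest together with PR1, CYP71A13, TAT3 and the plastid gene PSAC, with differences of -7.91, -7.12, -6.33 and -5.92 for the first 4. SAG13, a senescence marker, had means of 47.6 RPKM in WT, 24.7 in ldl1/2 and 0.288 in hda6. PSAC had a mean of 6.98 RPKM in ldl1/2, at least 51.0-fold above hda6, where its deposited FDR was 0.234 in the authors' deposited table.

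A larger share of the genes higher in hda6 than of all genes lay near the centromeres, with no test of the difference. A pericentromere was taken as the stretch within 3 Mb of the centre of the 1 Mb window with the fewest protein-coding genes. It held 102 of the 581 genes higher in hda6 , 80 of the 692 higher in ldl1/2 (11.6%) and 8.57% of all genes compared. Within 2 Mb the share of genes higher in hda6 was 8.89% and 9.55% for the first and second Mb, while from 3 Mb outward it lay between 2.56% and 2.81%. Among pericentromeric genes with a WT mean of at least 0.1 RPKM, 3.07% were higher in hda6 and 5.01% higher in ldl1/2. Over all genes compared, of any WT mean, these shares were 3.02% and 3.59%. The other 53 pericentromeric genes higher in hda6 had a WT mean under 0.1 RPKM, and for those the filter acts as described above. Long noncoding RNAs were 2.93% of the genes higher in hda6, 0.723% of those higher in ldl1/2 and 0.763% of all, and genes of 1 exon were 27.2%, 18.8% and 13.0%.

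**Figure D4:**
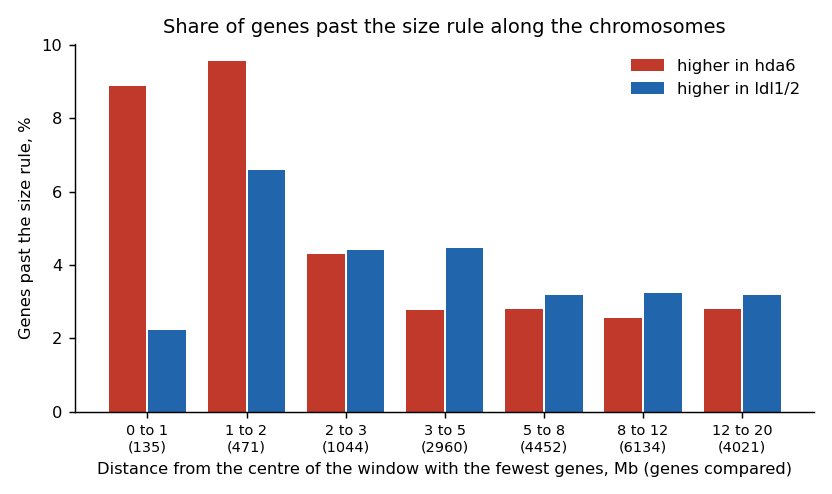
Share of compared genes past the size rule (y axis, percent) by distance in Mb from the centre of the window with the fewest protein-coding genes on the same chromosome (x axis, number of genes compared in brackets); red bars are genes higher in hda6 and blue bars genes higher in ldl1/2. The red bars stand at 8.89% and 9.55% within 2 Mb, at 4.31% from 2 to 3 Mb and at 2.56% to 2.81% beyond 3 Mb. The blue bars stand at 2.22%, 6.58% and 4.41% in the first 3 Mb.

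Neighbouring genes past the size rule in the same direction formed 46 runs of at least 2 genes for hda6 (107 genes) and 68 for ldl1/2 (156 genes). The rule held for 3.02% of all genes compared in the direction of hda6 and 3.59% in that of ldl1/2. How many runs such shares would give without any clustering was not computed. The longest, 6 genes higher in hda6 over 15.8 kb of chromosome 4 (8925571 to 8941406), held the glutaredoxins GRXS8, GRXS7, GRXS4, GRXS5 and GRXS3, and AT4G15710. These small redox proteins use glutathione and are known to be tied to nitrogen supply and growth. GRXS4 had means of 3.95 RPKM in WT, 6.83 in hda6 and 1.27 in ldl1/2, a difference of 2.51, and GRXS5 of 7.64, 10.2 and 2.16, a difference of 2.31. Among the 15 glutaredoxins with GRXS names 8 were higher in hda6, those of the run included, and 1, GRXS1, was higher in ldl1/2. By the authors' deposited table, 6 of these 15 fell in ldl1/2, against 4.04% of all genes compared. Glutaredoxins with GRXC names were left out of this count, and GRXC6 at -1.08 and GRXC10 at -1.85 were higher in ldl1/2. The copies in the run are close in sequence, so reads may have been split among them. The longest run for ldl1/2, 5 genes over 23.4 kb of chromosome 4, held the cysteine-rich receptor-like kinases CRK5, CRK6, CRK7, CRK9 and CRK10, with differences of -5.48 for CRK7 and -2.74 for CRK6. Of all 28 such kinases compared, 7 were higher in ldl1/2 and 3 in hda6, and the median difference was -0.03.

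Some other families, also chosen after their values had been seen, had more genes past the size rule on 1 side. Of all genes compared, 3.02% were higher in hda6 and 3.59% higher in ldl1/2. Of 50 SAUR-like genes, small auxin-induced proteins of growing tissue, 10 were higher in hda6 and 1 in ldl1/2, with 13 that fell in ldl1/2 in the authors' deposited table. SAUR19 had means of 1.21 RPKM in WT, 1.37 in hda6 and 0.194 in ldl1/2. Of 29 calmodulin-like genes 8 were higher in ldl1/2 and none in hda6, and of 33 receptor-like proteins likewise 8 and none. CML10, which binds calcium, read 398 and 527 RPKM in ldl1/2 with a mean of 57.3 in hda6, and RLP38 read 4.98 and 4.47 with a mean of 0.185. WRKY factors were higher in ldl1/2 in 8 of 56 cases and in hda6 in 2, tau glutathione transferases in 6 of 25 and 1, and phi glutathione transferases in 5 of 11 and 1. The medians of the families in this paragraph were within the size rule, at 0.46 for SAUR-like genes, -0.18 for calmodulin-like genes and -0.21 for receptor-like proteins. They were -0.10 for WRKY factors, -0.48 for tau and -0.49 for phi glutathione transferases.

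Some genes moved past the size rule in opposite directions. By size alone 37 genes (0.192%) were at least 2-fold up in hda6 and down in ldl1/2, and 43 (0.223%) were down in hda6 and up in ldl1/2. Both mutants passed the deposited FDR for 9 of the former (0.0467%) and 23 of the latter (0.119%). At any size 77 genes rose in hda6 and fell in ldl1/2 (0.400%), and 102 fell in hda6 and rose in ldl1/2 (0.530%), in the authors' deposited tables. In the former, 18 of 37 had a rebuilt ldl1/2 level under 0.5 reads, as had the 8 with the largest smaller fold: ATOFP9, AT4G08430, AT5G28235, AT3G30770, AT5G33390, AT5G26970, AT2G24780 and ERF105. Their WT groups held from 2.98 reads (AT5G28235) to 42.8 (ERF105). Each had a deposited FDR of 0.308 or more in ldl1/2 in the authors' deposited table.

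The 9 genes up in hda6 that passed in both tables are named after their values were seen. They were LHCB1.1, MLS, AT1G66100, AT1G47395, AT1G24881, TIP2-3, NPF2.4, ATMRU1 and AT3G13680. ATMRU1 read 16.0 and 18.7 RPKM in hda6, with means of 2.41 in WT and 1.09 in ldl1/2, a difference of 4.08 with a nominal interval of 3.18 to 4.98. AT1G66100, a thionin, read 19.8 and 17.5 RPKM in hda6 against a mean of 3.8 in ldl1/2. TIP2-3, a channel of the vacuole membrane, read 11.9 and 15.5 RPKM in hda6 against 2.65. AT3G13680, an F-box gene at 4477289 to 4478751 on chromosome 3, lies next to LDL2, whose annotated interval begins at 4478873, and its ldl1/2 level was 0.0346 RPKM against 1.68 and 1.38 in the hda6 libraries. In the samples labelled hda6/ldl1/2 it was at 0.428 RPKM, against 0.408 in WT, with an FDR of 1.000 in the authors' deposited table. Whether the ldl2 mutation touches it was not tested.

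Of the genes up in ldl1/2, the rule by the smaller fold was headed by AT5G37970, a methyltransferase, with 3.24 and 1.12 RPKM in ldl1/2 and a mean of 0.0213 in hda6. It was followed by PAP2, PSAC and AT1G57850, then PAP14, a purple acid phosphatase, PUMP6, a mitochondrial carrier, and SDI1 and LSU1. Of these, AT5G37970, PSAC, AT1G57850, PAP14 and PUMP6 did not pass the FDR in hda6 (0.0643 to 0.234 in the authors' deposited table). POT5, the high-affinity potassium transporter of the root, read 9.05 and 7.32 RPKM in ldl1/2, with means of 1.29 in WT and 0.569 in hda6, and rose in ldl1/2 and fell in hda6 in the authors' deposited tables. ACD6, a membrane protein of salicylic acid defence, read 140 and 170 RPKM in ldl1/2, with means of 55.8 in WT and 19.1 in hda6. BCA3, a carbonic anhydrase, read 20.9 and 46.2 RPKM in ldl1/2 with a mean of 3.10 in hda6. Sulfur, phosphate and potassium genes thus appear among the 43. POT5, ACD6 and BCA3 were chosen after their values had been seen.

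The samples labelled hda6/ldl1/2, which did not enter the rule, were set beside both mutants without WT. Of the 581 genes higher in hda6 the hda6/ldl1/2 level lay nearer to hda6 for 480 (82.6%), and of the 692 higher in ldl1/2 it lay nearer to hda6 for 440 (63.6%), against 57.3% of all genes compared. The median of hda6/ldl1/2 minus hda6 was -0.25 for genes higher in hda6, and minus ldl1/2 it was 1.49. For genes higher in ldl1/2 these medians were 0.67 and -1.08. Where hda6 alone passed the deposited FDR, the level in the samples labelled hda6/ldl1/2 was nearer to hda6 for 94.5% of 238 genes higher in hda6 and 74.5% of 263 genes higher in ldl1/2. Where ldl1/2 alone passed it, the level was nearer to hda6 for 68.4% of 155 and 55.5% of 173. LDL1 and LDL2 transcripts did not pass the FDR in those samples, and root markers summed to 31.3 RPKM there against 54.6 in hda6 and 56.0 in ldl1/2, and the part of either in these shares was not tested. The hda6/ldl1/2 libraries were also uneven, differing by over 2-fold for 32 of 3000 genes with at least 1000 reads.

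**Figure D5:**
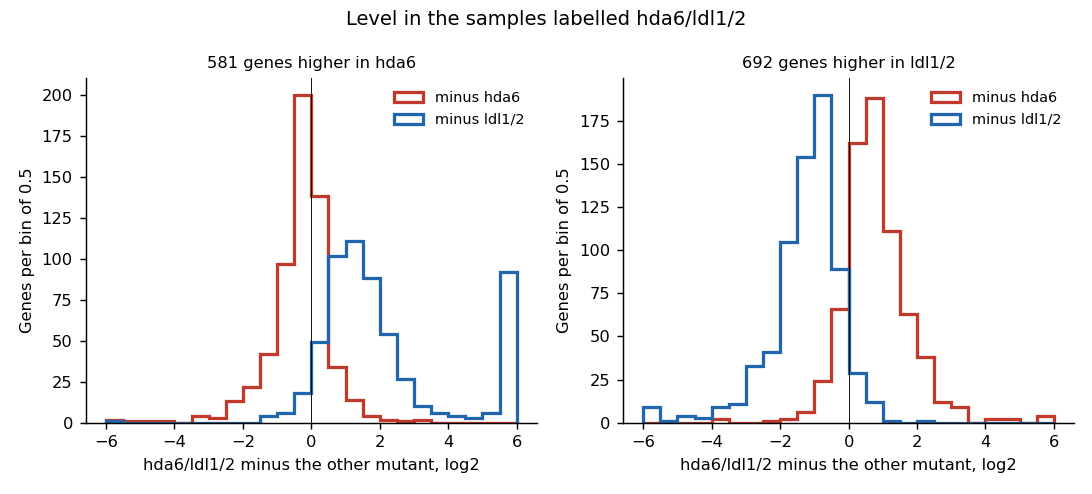
Distribution of the log2 fold change of hda6/ldl1/2 minus that of hda6 (red) or of ldl1/2 (blue), for the 581 genes higher in hda6 (left) and the 692 higher in ldl1/2 (right), in bins of 0.5 with values beyond 6 in the outer bins. The red outline has its median at -0.25 on the left and 0.67 on the right, the blue outline at 1.49 and -1.08.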

How the data were processed

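Total RNA of 4 Arabidopsis genotypes was sequenced from libraries of a TruSeq RNA kit, per the labels' protocols. Bowtie and TAIR10 are named in the submitters' processing notes, while the authors' test and strand setting were not named, so reads of overlapping genes cannot be told apart. The authors' deposited tables (3, each mutant against WT) list for every gene the larger group mean, the log2 and the signed fold change, and the p-value with its FDR. The deposited mean is in RPKM, read from the values and not stated in the headers. The deposited signed fold change is a score in data terms, since it has no values between -1 and 1, and was not used. A fold change is given in every table for all but 9357 of 34262 genes, whose deposited mean is 0.

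Here (Python 3.11.15, pandas 2.3.3, scipy 1.17.1) genes were matched by position to TAIR10.1, of which 33318 matched once. Means not printed were rebuilt from the fold changes, which lay -0.057 (hda6) and 0.032 (ldl1/2) in log2 from the ratio of RPKM means. Library totals were read from values of 1 read. Whole reads of both mutant libraries were solved from a printed mean. The same step solved 0 of 13462 printed WT means in the hda6 table and 0 of 9564 in the ldl1/2 table. These functions were tested on simulated data. With a deposited p of 0, the smallest p above 0, 1.11e-16, gave an upper limit of the standard error.

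The authors' deposited log2 fold changes were used as given: per gene the hda6 log2 fold change minus that of ldl1/2 was taken (filter 1 RPKM, size rule 1 in log2). No test was run between the mutants. Members and gene lists were chosen with earlier results of these data known. Named were the targeted genes, the 10 highest and 10 lowest differences of at least 5 RPKM, 8 genes per opposite direction by the smaller fold, and up to 6 members per list by the size of the difference. Other list members, families, P1BS and GAGAC were named after values were seen. Promoters were the 250 bases before the annotated start, cut from the RefSeq TAIR10.1 genome. Alternatives covered filters, pseudocounts, scaling, error and single libraries.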

Additional observations from a re-analysis of the deposited data

Results flagged for a closer look

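Opposite directions in the mutants, against the same WT, flagged 2 sets of genes: 37 genes up in hda6 and down in ldl1/2, and 43 genes down in hda6 and up in ldl1/2, each by at least 1 in log2. The difference was not tested, since no replicate check between the mutants is possible beyond the libraries read back. A WT level near 0 or an ldl1/2 level under 0.5 reads applied to many of the former and to few of the latter: the WT mean was under 0.1 RPKM in 15 of 37 and in 0 of 43, and the lower group was under 0.5 reads in 18 and 1.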

How the results depend on the processing

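The count of genes higher in hda6 (581) was 261 with a mean of at least 5 RPKM, 1933 with no filter, 354 with at least 1 RPKM in both tables and 308 with a pseudocount of 1 RPKM. The count higher in ldl1/2 (692) was 362 at 5 RPKM and 1927 with no filter. The count up in hda6 and down in ldl1/2 (37) was 13 at 5 RPKM, 208 with no filter, 7 with at least 1 RPKM in both tables, 0 with a pseudocount of 1 RPKM and 12 with one of 0.1 RPKM. The count down in hda6 and up in ldl1/2 (43) was 25 at 5 RPKM, 175 with no filter and 16 with a pseudocount of 1 RPKM. By construction the stricter filters drop low genes, the pseudocounts shrink their differences and no filter adds them. Under the ratio of RPKM means, centring, the hda6 or ldl1/2 mean itself, the nominal interval or an FDR in 1 table, the 4 counts stayed within 1.5 times. With 1 library left out, an alternative chosen after seeing the data, the counts ranged from 579 to 613, 666 to 805, 38 to 43 and 31 to 72, the last without the first ldl1/2 library. PDF1.2B ranged from -2.59 to 1.05 with 1 library left out, reversing without the second ldl1/2 library, and the cause was not tested. Among lists described above, the medians that moved past their nominal error were those of the immune response, -1.30 with a pseudocount of 1 RPKM, and late anthocyanin synthesis, -0.57 with 1 RPKM in both tables. That of darkness and starvation became 1.11 with a pseudocount of 1 RPKM, and that of the flower markers turned from 0.36 to -0.83 with no filter. No paired analysis was possible because the tables hold no library values for WT and the labels give no pairing. At 1 to 2 RPKM the combined standard error of 0.47 limits what a difference of 1 can show.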
